A study of Homo sapiens with 9 samples.

Results

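Heterogeneous nuclear ribonucleoproteins (hnRNPs) coat nascent transcripts and control their splicing, export and stability. The 10 hnRNP genes described here are HNRNPA1, HNRNPA2B1, HNRNPC, HNRNPD, HNRNPDL, HNRNPH1, HNRNPH3, HNRNPK, HNRNPL and HNRNPM. They were taken as a list of names, out of 58214 genes with at least 1 transcript in the quantification, and together they held 177 transcripts. On GRCh38 the genes lie at chr12:54280193-54287088 on the plus strand (HNRNPA1), chr7:26173057-26201529 on the minus strand (HNRNPA2B1), chr14:21209136-21269494 on the minus strand (HNRNPC), chr4:82352498-82374503 and chr4:82422565-82430462 on the minus strand (the neighbours HNRNPD and HNRNPDL), chr5:179614178-179634784 on the minus strand (HNRNPH1), chr10:68331174-68343193 on the plus strand (HNRNPH3), chr9:83968083-83980616 on the minus strand (HNRNPK), chr19:38836370-38852347 on the minus strand (HNRNPL) and chr19:8444767-8489114 on the plus strand (HNRNPM). For each gene the summed level and the balance of its coding isoforms against its isoforms annotated as targets of nonsense-mediated decay (NMD) or as noncoding were compared among 3 groups of libraries.

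The RNA came from K562, a human erythroleukaemia cell line (spelt K652 in one of the labels), and was sequenced after poly(A) enrichment. There were 3 libraries per group, all from cells harvested on day 4 after siRNA transfection: a non-targeting siRNA pool (SCR), a pool against DHX34, and siRNAs against UPF1. UPF1 is the RNA helicase at the centre of NMD, and DHX34 is an RNA helicase that helps UPF1 to become active in that pathway. All 9 libraries were of transfected cells of the same line, and residual protein after knockdown was not measured in these data.

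Many splicing regulators limit their own level through NMD. When the protein is abundant it steers the splicing of its own pre-mRNA, or that of a close relative, towards an isoform with a premature stop codon, either by leaving out an exon and shifting the reading frame or by including a "poison" exon. A stop codon that lies well upstream of the last exon-exon junction marks the transcript for decay. Such isoforms are short-lived, and as a rule they are scarce in cells with active NMD.

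The targeted mRNAs were reduced in the groups labelled for them. DHX34 was at 30.1, 30.0 and 34.0 CPM (counts relative to the library total, scaled by TMM, a correction for differences in library composition) in DHX34 knockdown against 72.3 to 74.5 in SCR, and UPF1 was at 105 to 107 CPM in UPF1 knockdown against 252 to 266 CPM in SCR. Library totals ran from 73478797 to 103625443 expected counts. The average fragment length was 254 bases in SCR, 258 to 259 bases in DHX34 knockdown and 251 to 256 bases in UPF1 knockdown. All 10 erythroid and megakaryocytic markers examined were above 1 TPM (transcript abundance, corrected for length and scaled to the same total in every library) on average, and their summed level was 20256 to 21549 TPM in SCR, 19093 to 20852 TPM in DHX34 knockdown and 12973 to 13827 TPM in UPF1 knockdown. The 5 epithelial markers summed to between 68.4 and 80.5 TPM and the 3 embryonic kidney markers to between 17.4 and 22.4 TPM. The 4 T cell markers summed to 22.9 to 23.1 TPM in SCR, 22.6 to 31.4 TPM in DHX34 knockdown and 6.77 to 12.8 TPM in UPF1 knockdown. The 3 monocyte markers summed to 14.1 to 14.6, 29.7 to 32.9 and 11.9 to 12.6 TPM in the same order, and the 3 B cell markers to 1.80 to 2.46, 3.49 to 3.98 and 1.56 to 1.91 TPM. Each of these 5 lists had 1 gene above 1 TPM on average, and KRT5, KRT17, CDH1, PAX2, CD8A, CD4, MS4A1, CD14 and CSF1R were below 0.1 TPM. The part of these differences between groups in the results on hnRNP genes was not tested. In bulk RNA, fewer cells of a type and less RNA per cell cannot be told apart.

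The 7 stretches of sequence given here show how loss or addition of an exon puts a premature stop into the reference isoform of 5 hnRNP genes. They were read from GRCh38 at the coordinates of GENCODE release 44 and are written 5′ to 3′ on the strand of the gene. In the first 4, capitals mark an exon of the MANE Select isoform (the reference isoform of the gene) that another isoform leaves out, and lower case marks 20 intron bases on either side. HNRNPH1 exon 5 is at chr5:179619269-179619407 on the minus strand, HNRNPH3 exon 3 at chr10:68337858-68337996 on the plus strand, HNRNPM exon 3 at chr19:8462529-8462581 on the plus strand and HNRNPK exon 6 at chr9:83975462-83975505 on the minus strand. They are 139, 139, 53 and 44 bases long, and none of these lengths is a multiple of 3, so leaving out the exon shifts the reading frame.
HNRNPH1 exon 5: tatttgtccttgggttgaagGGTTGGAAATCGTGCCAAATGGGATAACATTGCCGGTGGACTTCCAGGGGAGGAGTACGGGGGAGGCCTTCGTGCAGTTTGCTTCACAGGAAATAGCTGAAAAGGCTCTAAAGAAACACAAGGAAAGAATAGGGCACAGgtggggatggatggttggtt
HNRNPH3 exon 3: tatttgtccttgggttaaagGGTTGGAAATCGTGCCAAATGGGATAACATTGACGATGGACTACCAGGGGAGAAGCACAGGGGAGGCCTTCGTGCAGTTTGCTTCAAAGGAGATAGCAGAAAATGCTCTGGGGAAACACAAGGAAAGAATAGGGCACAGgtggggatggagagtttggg
HNRNPM exon 3: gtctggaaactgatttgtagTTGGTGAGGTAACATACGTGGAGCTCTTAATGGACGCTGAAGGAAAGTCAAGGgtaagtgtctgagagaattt
HNRNPK exon 6: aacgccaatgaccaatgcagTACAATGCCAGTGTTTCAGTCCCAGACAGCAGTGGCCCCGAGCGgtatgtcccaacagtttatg

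The skipped exons of HNRNPH1 and HNRNPH3 had the same length and were identical at 126 of 139 positions (90.6%). In a translation of each MANE Select isoform without its exon, the reading frame of HNRNPH1 closed after 184 codons in place of 449 and that of HNRNPH3 after 71 in place of 346. HNRNPH3 has no isoform annotated as an NMD target, so its early stop rests on this translation alone. The new stop codons lay 656 and 609 bases upstream of the last exon-exon junction. Leaving out exon 3 of HNRNPM closed its frame after 99 codons in place of 730, with the stop 1676 bases upstream of the last junction, and leaving out exon 6 of HNRNPK closed its frame after 77 codons in place of 464, with the stop 1083 bases upstream. In HNRNPM and HNRNPK the stop came soon after the new junction, as the next lines show, where the 20 bases before the junction and the bases after it are in lower case and the new stop codon is in capitals.
HNRNPM without exon 3: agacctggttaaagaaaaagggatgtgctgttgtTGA
HNRNPK without exon 6: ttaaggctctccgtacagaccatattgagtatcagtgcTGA

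HNRNPL used the opposite arrangement, an added exon. Its NMD isoform HNRNPL-202 holds a 70-base exon at chr19:38841613-38841682 on the minus strand, between exons 6 and 7 of the MANE Select isoform. The line below gives the last 20 intron bases in lower case and, in capitals, the first 59 bases of the exon, which end with an in-frame stop codon. This stop lay 842 bases upstream of the last junction and closed the frame after 312 codons in place of 589.
HNRNPL poison exon: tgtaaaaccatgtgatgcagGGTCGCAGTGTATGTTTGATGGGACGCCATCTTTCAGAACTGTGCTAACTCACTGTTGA

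In HNRNPDL the reading frame was not touched. A 105-base exon at chr4:82425563-82425667 on the minus strand, added after exon 7 and downstream of the normal stop codon, left all 420 codons but put the stop 127 bases upstream of the last junction in place of 22. HNRNPD had an exon of 107 bases in the same kind of position, which moved its stop from 30 to 137 bases upstream of the last junction. The NMD isoforms of the abundant genes had shorter distances than those of HNRNPK, HNRNPL and HNRNPM: the annotated stop lay 75 bases upstream of the last junction in HNRNPA1-205 and 157 bases upstream in HNRNPA2B1-203.

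Gene levels came first. HNRNPA1, an abundant splicing repressor, had the highest level of the 10 genes in SCR, at 2188 ± 23.2 TPM (mean ± SD, n = 3 here and below). It was followed by HNRNPA2B1, its close relative, at 1086 ± 20.2 TPM and HNRNPC, which packages nascent RNA, at 998 ± 11.3 TPM. HNRNPD, which binds AU-rich elements in mRNAs (605 ± 14.2 TPM), and HNRNPK, which binds C-rich RNA (586 ± 13.2 TPM), overlapped across their SCR libraries. HNRNPL, which binds CA repeats, was at 440 ± 8.16 TPM. At the low end, HNRNPDL, the relative of HNRNPD, at 291 ± 8.28 TPM overlapped with HNRNPM, a binder of G- and U-rich RNA, at 283 ± 12.9 TPM. HNRNPH3 at 262 ± 5.93 TPM overlapped with HNRNPH1 at 242 ± 25.1 TPM, both of which bind runs of G. All other neighbours in this order had non-overlapping SCR libraries.

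**Figure D1:**
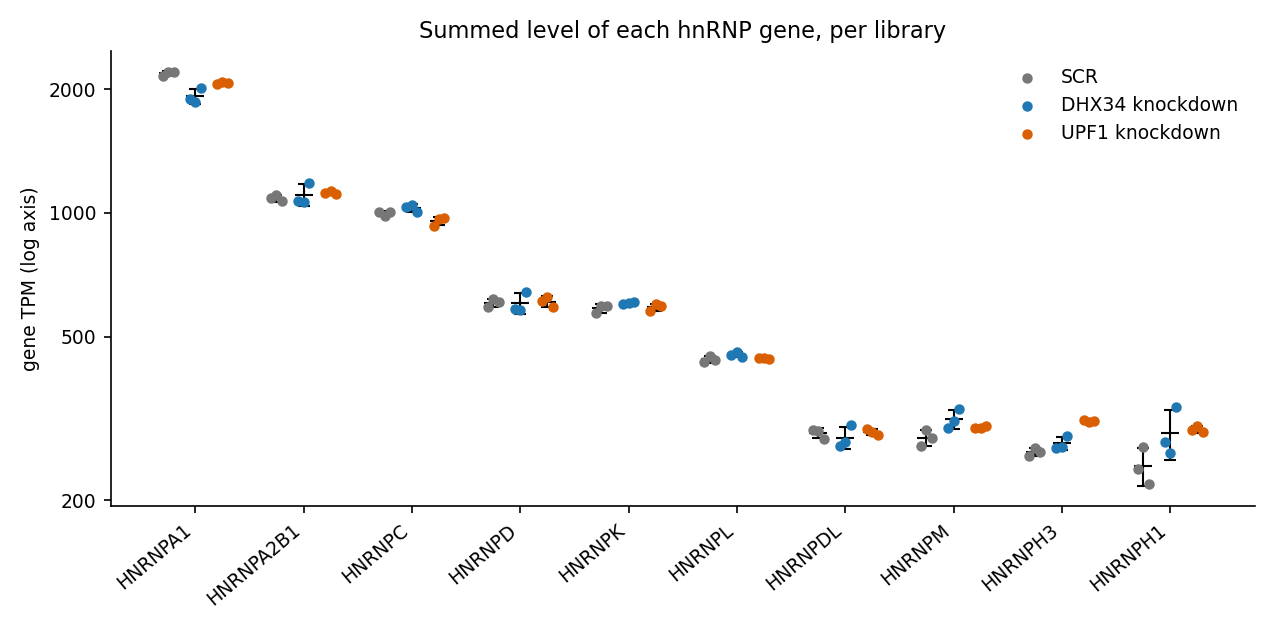
Summed TPM of each of the 10 hnRNP genes (log axis) in the 3 SCR, 3 DHX34 knockdown and 3 UPF1 knockdown libraries; points are libraries, and black bars are the mean ± SD. HNRNPA1 lies at the top, at 1861 TPM or more in every library, and among the 4 genes at the low end the order differs between groups, with HNRNPH3 at 309.9 to 313 TPM above HNRNPDL, HNRNPM and HNRNPH1 in UPF1 knockdown.

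In UPF1 knockdown against SCR, 8 of the 10 genes fell by a small amount, HNRNPH1 and HNRNPH3 did not pass the test, and none rose. A gene was called at an adjusted p of at most 0.005 in edgeR's quasi-likelihood test on summed expected counts, a limit that 12.9% of the 17184 genes tested passed in the downward direction. HNRNPA1 was at 2650, 2595 and 2702 CPM in SCR and at 2150, 2192 and 2199 CPM in UPF1 knockdown. The groups did not overlap, and HNRNPA1 fell by 0.29 ± 0.02 (SE) on the log2 scale (edgeR adjusted p = 1.80e-06).

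HNRNPC was at 1338, 1263 and 1344 CPM in SCR and at 1071, 1116 and 1128 CPM in UPF1 knockdown, again without overlap (log2 fold change -0.26 ± 0.03; edgeR adjusted p = 2.47e-05). The other 6 falls were those of HNRNPL (-0.24), HNRNPK (-0.22), HNRNPD (-0.18), HNRNPM (-0.16), HNRNPA2B1 (-0.16) and HNRNPDL (-0.13) on the log2 scale, with edgeR adjusted p-values between 8.01e-06 and 0.00216. The call on HNRNPDL was lost in 4 of the 6 fits that left out 1 library (edgeR adjusted p from 0.00259 to 0.0122), being kept without SCR replicate 2 or 3. HNRNPH1 was at 345 to 367 CPM in SCR and 358 to 364 CPM in UPF1 knockdown (log2 fold change 0.01; edgeR adjusted p = 0.787). HNRNPH3 was at 265 to 272 CPM and 282 to 286 CPM (0.08; edgeR adjusted p = 0.0292).

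The falls depended on the scale. On the log2(TPM + 0.5) scale, which has no TMM correction, the median of all genes tested stood 0.17 higher in UPF1 knockdown than in SCR, and the same 8 genes stood between -0.08 (HNRNPA1) and 0.09 (HNRNPM). On this scale HNRNPH3 rose by 0.25 (limma adjusted p = 0.000260), and HNRNPH1 stood at 0.30 (limma adjusted p = 0.00996). Here HNRNPA2B1, HNRNPD, HNRNPDL, HNRNPK, HNRNPL and HNRNPM turned to small positive values, none of which limma called at an adjusted p of at most 0.005. With the libraries then centred so that the median gene did not move, a step added after the data had been seen, limma called 6 of the 8 lower, all but HNRNPA2B1 (-0.13; limma adjusted p = 0.00652) and HNRNPM (-0.08; limma adjusted p = 0.0649). There HNRNPA1 stood at -0.25 and HNRNPH3 at 0.08. The summed TPM of HNRNPD, HNRNPDL, HNRNPK and HNRNPL overlapped between SCR and UPF1 knockdown, as in HNRNPL with 433, 449 and 439 TPM against 443, 445 and 442 TPM. HNRNPA2B1 (1085, 1107 and 1067 TPM against 1118, 1134 and 1112 TPM) and HNRNPM (271, 296 and 283 TPM against 300.3, 300.4 and 303 TPM) were higher in every UPF1 knockdown library, and only HNRNPA1 and HNRNPC were lower in every one.

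In DHX34 knockdown against SCR, 1 of the 10 genes was called, HNRNPA1, where 4.86% of the 17004 genes tested were called lower. Its level was 2116, 2052 and 2123 CPM in DHX34 knockdown, below all 3 SCR libraries (log2 fold change -0.34 ± 0.04; edgeR adjusted p = 0.000116). It was called in all 6 fits that left out 1 library. Of the other 9 genes, HNRNPH1 stood at 0.05 and 8 at between -0.15 and -0.06, with edgeR adjusted p-values from 0.00871 to 0.624. DHX34 knockdown replicate 3 differed from the other 2 libraries of its group, with HNRNPH1 at 411 CPM against 346 and 345 CPM and HNRNPA2B1 at 1516 CPM against 1438 and 1408 CPM. Without it HNRNPA1, HNRNPA2B1, HNRNPD and HNRNPDL were called lower, 4 genes in all, with HNRNPD at -0.15 and HNRNPDL at -0.18.

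The direct comparison of the 2 knockdowns called 1 gene, HNRNPH3, against 9.89% of the 17435 genes tested that were called higher. HNRNPH3 was at 282, 283 and 286 CPM in UPF1 knockdown and at 253, 246 and 258 CPM in DHX34 knockdown, with no overlap (log2 difference 0.18 ± 0.03; edgeR adjusted p = 0.000971). Of the 6 fits with 1 library removed, only 1 kept the call, that without DHX34 knockdown replicate 3, with edgeR adjusted p-values between 9.92e-05 and 0.00698 over the 6. Without that library HNRNPC, HNRNPK and HNRNPL were called too, as lower in UPF1 knockdown. The 3 comparisons share libraries pairwise and were not set against each other in any other way.

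Isoforms were then grouped by annotated biotype into a coding, an NMD and a noncoding class (retained introns and transcripts without a defined coding sequence), and the expected counts of each class were summed within the gene. In UPF1 knockdown against SCR the coding class fell in HNRNPA1, HNRNPA2B1, HNRNPC, HNRNPD, HNRNPDL, HNRNPK, HNRNPL and HNRNPM, 8 of 10 genes, at log2 fold changes between -0.33 and -0.21. Over all genes tested, 15.2% of coding classes were called lower. These falls too were on the counts. In TPM the coding classes of HNRNPA1, HNRNPC and HNRNPDL were lower in every UPF1 knockdown library than in SCR, those of HNRNPA2B1, HNRNPD, HNRNPK and HNRNPL overlapped, and that of HNRNPM was higher, at 294, 295 and 295 TPM against 269, 294 and 281 TPM. The NMD class rose in HNRNPA2B1, HNRNPDL, HNRNPL and HNRNPM, 4 of the 8 genes whose NMD class was tested, where 11.1% of all NMD classes were called higher. It fell in HNRNPA1, a direction called in 0.743% of NMD classes. The median log2 fold change of the 8 NMD classes was 0.31, beside 0.47 over all NMD classes tested.

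The NMD class of HNRNPDL was at 10.4, 11.8 and 9.46 TPM in SCR, 12.3, 12.1 and 13.8 TPM in DHX34 knockdown and 28.1, 28.1 and 27.8 TPM in UPF1 knockdown. The UPF1 libraries were above all others, and DHX34 knockdown was above SCR by a margin that did not pass the test (log2 fold change of the counts 0.15; edgeR adjusted p = 0.219). In UPF1 knockdown against SCR the summed counts rose by 0.68 ± 0.07 on the log2 scale (edgeR adjusted p = 0.000233), while the coding class fell by 0.25 ± 0.03. The NMD share of HNRNPDL's TPM was 3.62 ± 0.341% in SCR, 4.48 ± 0.107% in DHX34 knockdown and 9.55 ± 0.109% in UPF1 knockdown.

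HNRNPL, whose NMD class is the poison exon isoform alone, was scarcer. It was at 1.95, 2.98 and 2.94 TPM in SCR, 3.44, 2.33 and 3.60 TPM in DHX34 knockdown and 6.74, 9.30 and 8.19 TPM in UPF1 knockdown. The UPF1 knockdown libraries were above the other 6, and SCR and DHX34 knockdown overlapped. The counts rose by 1.38 ± 0.18 on the log2 scale in UPF1 knockdown against SCR (edgeR adjusted p = 0.00102), and the NMD share went from 0.594 ± 0.125% to 1.82 ± 0.287% of the gene's TPM. Without UPF1 knockdown replicate 2 or 3 the call was lost, and with each library removed in turn the edgeR adjusted p lay between 0.00227 and 0.00606.

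HNRNPM-214, the only NMD isoform of HNRNPM, lacks exon 3. It was at 0.822, 1.60 and 1.38 TPM in SCR, 0.784, 1.12 and 0.817 TPM in DHX34 knockdown and 4.19, 3.98 and 5.21 TPM in UPF1 knockdown. Again only UPF1 knockdown stood apart, with a rise of 1.59 ± 0.23 on the log2 scale of the counts against SCR (edgeR adjusted p = 0.00167). This call was kept without SCR replicate 1 or 2 and lost without any other library (edgeR adjusted p from 0.00178 to 0.00901). Against DHX34 knockdown the rise was 2.24 ± 0.19 (edgeR adjusted p = 0.000207) and was called in all 6 such fits.

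The remaining rise was smaller but rested on a much more abundant isoform. HNRNPA2B1-203, the single NMD isoform of that gene, was at 109, 109 and 106 TPM in SCR, 119, 117 and 130 TPM in DHX34 knockdown and 151, 161 and 157 TPM in UPF1 knockdown. The 3 groups did not overlap on the TPM scale. On the log2(TPM + 0.5) scale the median of all genes tested stood 0.13 higher in DHX34 knockdown than in SCR, and 0.17 higher in UPF1 knockdown. On the counts, the difference between UPF1 knockdown and SCR was 0.29 ± 0.03 on the log2 scale (edgeR adjusted p = 0.000376) and that between DHX34 knockdown and SCR was 0.01 (edgeR adjusted p = 0.900). The NMD share of HNRNPA2B1 was 9.93 ± 0.0864% in SCR, 11.0 ± 0.0638% in DHX34 knockdown and 13.9 ± 0.360% in UPF1 knockdown.

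The abundant NMD isoform of HNRNPA1 went the other way. This isoform, HNRNPA1-205, was, at 867, 867 and 856 TPM in SCR, the most abundant isoform of the gene. It was at 810, 834 and 826 TPM in UPF1 knockdown and 756, 745 and 794 TPM in DHX34 knockdown, below SCR in every library. The NMD class fell by 0.30 ± 0.03 and the coding class by 0.33 ± 0.02 in UPF1 knockdown (edgeR adjusted p = 0.000157 and 0.000103), so the NMD share stayed between 38.9% and 40.2% of the gene's TPM in all 9 libraries. The gene's other NMD isoform, HNRNPA1-210, was a small part of the class and stood higher in UPF1 knockdown. It was at 0.270, 0.178 and 0.764 TPM in SCR, 0.348, 0 and 0.172 TPM in DHX34 knockdown and 2.17, 2.51 and 2.76 TPM in UPF1 knockdown, without overlap, a difference in counts that did not pass the test against SCR (edgeR adjusted p = 0.0686).

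For HNRNPD, HNRNPH1 and HNRNPK the NMD class was not called. HNRNPH1, 6 of whose 8 NMD isoforms lack exon 5, was at 17.5, 23.0 and 19.8 TPM in SCR and 30.4, 36.0 and 41.9 TPM in UPF1 knockdown, without overlap, and the change in counts was 0.32 ± 0.10 on the log2 scale (edgeR adjusted p = 0.0467). HNRNPD stood at 17.6 to 18.4 TPM in SCR and 18.1 to 23.4 TPM in UPF1 knockdown (edgeR adjusted p = 0.794). HNRNPK-207, the form without exon 6, was at 40.2 to 43.8 TPM in SCR, 46.1 to 52.9 TPM in DHX34 knockdown and 45.8 to 52.8 TPM in UPF1 knockdown. Both knockdowns were above SCR on this scale, where the median gene was higher too. The log2 count differences from SCR were 0.09 and -0.02 in that order (edgeR adjusted p = 0.442 and 0.874). HNRNPK-207 was quantified as a model of 822 bases, shorter than the 1083 bases from its stop to the last junction in GENCODE 44. The same held for the HNRNPH1 isoforms HNRNPH1-215 and HNRNPH1-217, of 610 and 620 bases against 656 bases. The NMD isoform of HNRNPC was at 0.384 TPM or less in every library and was not tested, and HNRNPH3 had no isoform in the NMD class.

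**Figure D2:**
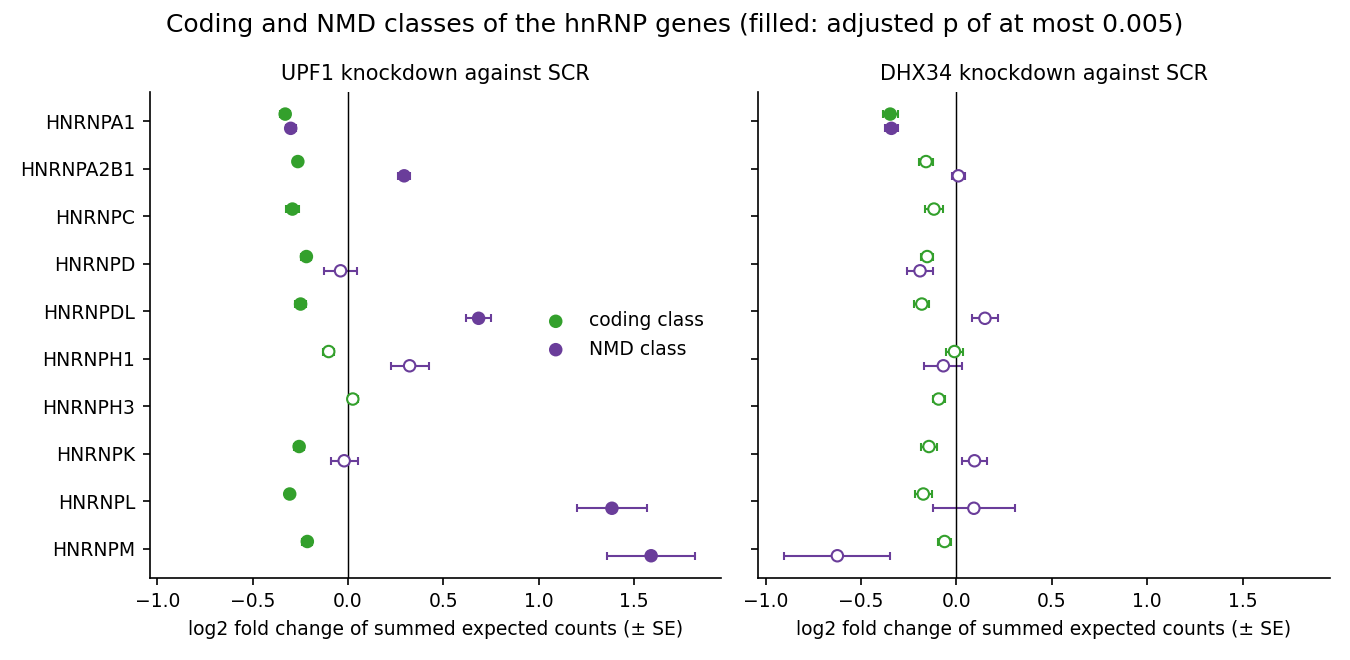
Log2 fold changes of the summed expected counts of the coding class (green) and the NMD class (purple) of each hnRNP gene, for UPF1 knockdown against SCR (left) and DHX34 knockdown against SCR (right); bars are standard errors and filled points passed the adjusted p of 0.005. On the left the NMD classes of HNRNPM (1.59) and HNRNPL (1.38) lie farthest to the right while the coding classes lie left of 0 in all genes but HNRNPH3, and on the right HNRNPA1 has the only filled points.

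In DHX34 knockdown against SCR the class sums called 1 gene. Both the coding class and the NMD class of HNRNPA1 fell, by 0.35 ± 0.04 and 0.34 ± 0.03 on the log2 scale (edgeR adjusted p = 0.00221 and 0.00141), beside 1.72% of coding and 0.536% of NMD classes called lower over all genes. Both calls were kept without DHX34 knockdown replicate 3 and lost without any of the other 5 libraries, with edgeR adjusted p-values up to 0.0144 and 0.0126. UPF1 knockdown against DHX34 knockdown called the NMD classes of HNRNPA2B1 (0.31 ± 0.04), HNRNPDL (0.56 ± 0.05), HNRNPL (1.32 ± 0.18) and HNRNPM (2.24 ± 0.19) higher, 4 of 8, beside 9.54% of all NMD classes. Leaving out 1 library gave 2 to 4 calls. HNRNPA2B1 kept its call in 2 of the 6 fits (edgeR adjusted p from 0.000966 to 0.00691), and HNRNPM in all 6.

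The balance within each gene was tested as the log2 ratio of the NMD class to the coding class, each as TPM plus 0.1, with limma at an adjusted p of at most 0.05. In UPF1 knockdown against SCR the ratio rose in HNRNPDL, HNRNPL and HNRNPM, 3 of the 8 genes tested, where 15.1% of the 3713 ratios tested rose. The change was 1.49 ± 0.20 (SE) in HNRNPDL, 1.62 ± 0.32 in HNRNPL and 1.71 ± 0.34 in HNRNPM on the log2 scale (limma adjusted p = 0.0113, 0.0251 and 0.0257). All 8 ratios were higher, with a median change of 0.62, beside 0.47 over all genes tested. The other 5 were HNRNPH1 (0.69; limma adjusted p = 0.0809), HNRNPA2B1 (0.56; 0.0652), HNRNPK (0.22; 0.462), HNRNPD (0.18; 0.641) and HNRNPA1 (0.03; 0.896), none of which passed. HNRNPA2B1, HNRNPH1 and HNRNPK had no overlap between the 2 groups, and HNRNPA1 and HNRNPD did overlap.

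HNRNPDL was still called without any 1 SCR library or UPF1 knockdown replicate 1, and was lost without UPF1 knockdown replicate 2 or 3 (limma adjusted p from 0.0265 to 0.0561). HNRNPL and HNRNPM were called only without SCR replicate 2 among the 6 fits, at limma adjusted p-values from 0.0479 to 0.0880 and from 0.0443 to 0.0911. The changes themselves stayed between 1.44 and 1.57, 1.44 and 1.74, and 1.48 and 1.85 in the order of the genes above.

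In DHX34 knockdown against SCR limma called 0 of the 9 NMD to coding ratios tested, where 0.14% of the 3565 ratios tested rose, and 0 of the 9 had an unadjusted p under 0.05. The values for HNRNPDL, HNRNPL and HNRNPM were 0.32, 0.22 and -0.56 on the log2 scale (limma adjusted p = 0.713, 0.900 and 0.695). HNRNPDL was higher in all 3 DHX34 knockdown libraries than in any SCR library, as were HNRNPA2B1 (0.17; limma adjusted p = 0.815) and HNRNPK (0.23; limma adjusted p = 0.770). How many of all ratios tested stood apart in this way was not counted, here or for other groups described as not overlapping. Compared directly, UPF1 knockdown was above DHX34 knockdown by 1.17 ± 0.19 in HNRNPDL, 1.40 ± 0.34 in HNRNPL and 2.27 ± 0.33 in HNRNPM (limma adjusted p = 0.0183, 0.0447 and 0.0145), the 3 genes called beside 13.3% of ratios over all genes. Leaving out a library kept HNRNPDL and HNRNPM in 3 of 6 fits each, those that left out a DHX34 knockdown library, and HNRNPL in 0 of 6 (limma adjusted p up to 0.0756, 0.0663 and 0.136).

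**Figure D3:**
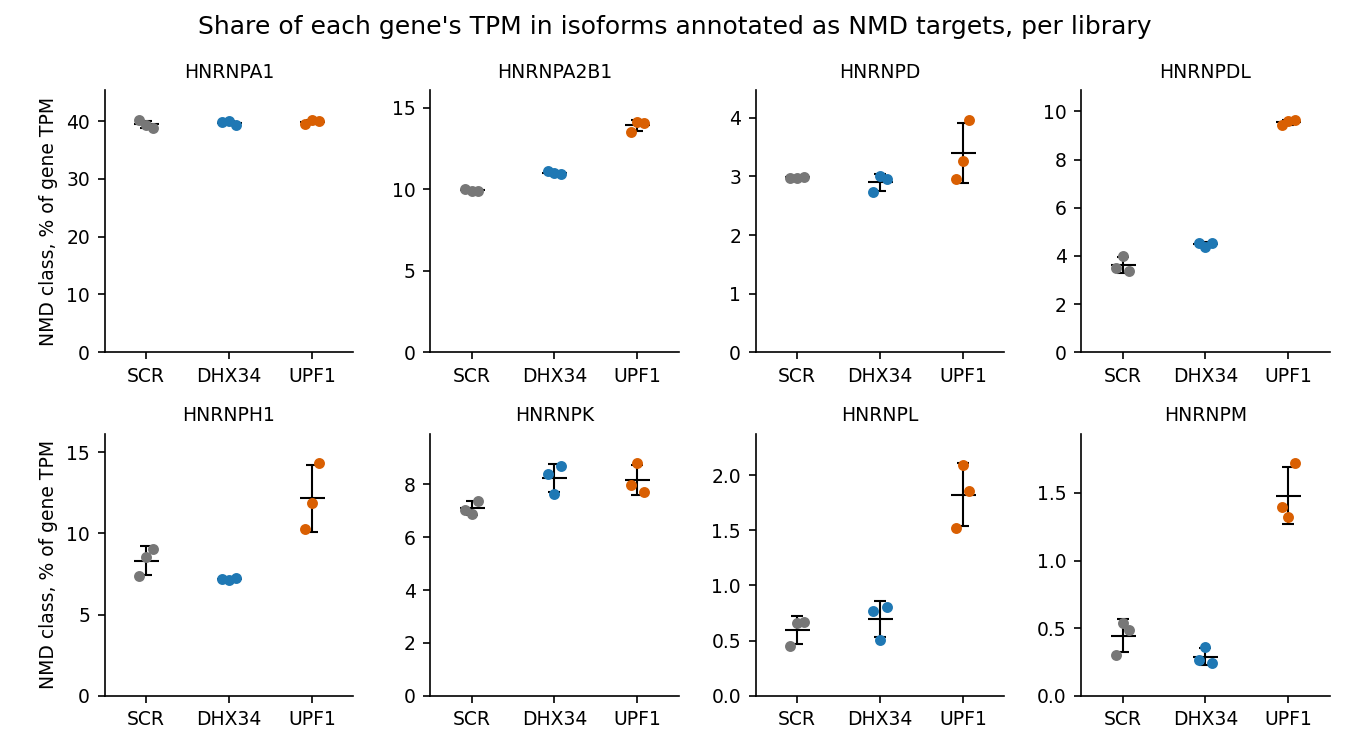
NMD class as a percentage of the gene's TPM in each library of the 8 hnRNP genes with a measurable NMD class; points are libraries, black bars the mean ± SD, and each panel has its own axis from 0. In HNRNPDL, HNRNPL, HNRNPM, HNRNPA2B1 and HNRNPH1 the UPF1 knockdown libraries lie above all other libraries, whereas HNRNPA1 stays near 40% in all groups and HNRNPD overlaps between groups.

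The ratio of noncoding to coding isoforms gave 0 calls in limma in these genes in each of the 3 comparisons. At an unadjusted p under 0.05 there was 1 of 9 ratios in DHX34 knockdown against SCR and 0 of 9 in each of the others. The background was low as well, with 0.0428% of ratios called higher in DHX34 knockdown against SCR, 0.0995% in UPF1 knockdown against SCR and 0.028% between the knockdowns. HNRNPH1 and HNRNPH3 had the largest noncoding classes. That of HNRNPH1 was 46.6, 66.7 and 40.4 TPM in SCR, 72.6, 68.1 and 110 TPM in DHX34 knockdown and 74.6, 73.4 and 70.6 TPM in UPF1 knockdown. Both knockdowns were above SCR in every library on the TPM scale, where the median gene was higher too. The ratio to coding changed by 0.58 ± 0.23 and 0.40 ± 0.19 on the log2 scale (limma adjusted p = 0.510 and 0.340). The noncoding class of HNRNPH3 held 45.8 ± 0.245% of the gene's TPM in SCR and 46.2 ± 0.742% in UPF1 knockdown.

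Beneath that constant share, the single noncoding isoforms of HNRNPH3 changed places. HNRNPH3-207 was at 26.4, 30.3 and 27.2 TPM in SCR and 66.8, 65.4 and 60.5 TPM in UPF1 knockdown, and HNRNPH3-203 went from 1.47, 2.16 and 1.07 TPM to 13.5, 15.8 and 12.6 TPM. Both lack exon 3. HNRNPH3-209 went from 22.2, 26.6 and 27.0 TPM to 3.44, 5.89 and 4.17 TPM. None of the 3 pairs of groups overlapped, and the log2 fold changes of the counts were 0.96 ± 0.06, 2.91 ± 0.29 and -2.73 ± 0.23 (edgeR adjusted p = 0.00117, 0.00281 and 0.00180). These 3 transcripts are short partial models of 752, 648 and 635 bases without a defined coding sequence, so their TPM depends on how salmon divided reads among overlapping models. In DHX34 knockdown they stood at 30.6, 1.68 and 27.3 TPM on average, within or close to the SCR range.

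Isoforms of the 10 genes averaging 1 TPM or more over all 9 libraries were counted. Of these, 106 were tested and 17 called in UPF1 knockdown against SCR, 5 higher and 12 lower. Of the 34125 transcripts of all genes at that level 1.69% were called higher and 2.9% lower, beside 0.97% and 1.62% of the 62497 tested at any level. On the log2(TPM + 0.5) scale the direction was the reverse, with 7 isoforms called higher by limma and 1 lower, HNRNPH3-209. The 5 that rose were HNRNPA2B1-203, HNRNPDL-202, HNRNPH1-224, HNRNPH3-203 and HNRNPH3-207. HNRNPDL-202 was listed at 0 in all SCR and DHX34 knockdown libraries and at 18.5, 16.1 and 15.9 TPM in UPF1 knockdown, while HNRNPDL-203, a longer isoform with the same added exon, was at 9.46 to 11.2 TPM in SCR and 8.94 to 11.7 TPM in UPF1 knockdown. HNRNPH1-224 was likewise listed at 0 outside UPF1 knockdown, where it was at 5.45, 5.04 and 3.76 TPM. Exact zeros of one isoform beside a nearly identical one can come from the division of reads by salmon, so no fold is given for these. HNRNPDL-202 and HNRNPH1-224 reached the mean of 1 TPM through UPF1 knockdown alone, so their calls are not weighed against the shares above. Leaving out 1 library gave between 0 and 8 calls in place of 17.

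Of the 12 isoforms that fell on the counts, 6 were the most abundant coding isoform of their gene. These included HNRNPA1-201 (719, 743 and 757 TPM in SCR and 680, 684 and 688 TPM in UPF1 knockdown), HNRNPC-204 (603, 593 and 609 TPM against 538, 570 and 569 TPM) and HNRNPDL-206 (268, 262 and 253 TPM against 242, 238 and 234 TPM). Their log2 fold changes on the counts were -0.36, -0.35 and -0.39 (edgeR adjusted p = 0.00160, 0.00364 and 0.00164). The others were the coding isoforms HNRNPA1-202, HNRNPA1-203, HNRNPK-205 and HNRNPM-202, the NMD isoform HNRNPA1-205 and the noncoding HNRNPH3-209. HNRNPA2B1-202, HNRNPD-203, HNRNPK-202 and HNRNPK-205 fell on the counts, but overlapped with SCR in TPM, and HNRNPD-203 stood at 0.00 on the log2(TPM + 0.5) scale. HNRNPM-202 went from 46.3, 46.3 and 44.8 TPM to 31.3, 38.2 and 32.7 TPM (log2 fold change -0.67; edgeR adjusted p = 0.00404), and was at 36.4, 30.5 and 30.0 TPM in DHX34 knockdown (-0.65; edgeR adjusted p = 0.0271). In DHX34 knockdown against SCR edgeR called 0 of the 103 isoforms tested at an adjusted p of at most 0.005, 7 at 0.05, and DESeq2 called 13 at 0.005. The shares of all transcripts called were not counted for this comparison, so these counts have no background beside them.

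Between the knockdowns 7 isoforms were called, 6 of them higher in UPF1 knockdown, beside 1.34% of all transcripts averaging 1 TPM or more and 0.732% of those at any level. These 6 were HNRNPDL-202, HNRNPH1-215, HNRNPH1-224, HNRNPH3-203, HNRNPH3-207 and HNRNPM-214, and HNRNPH3-209 was lower. HNRNPDL-202 and HNRNPH1-224 again passed the level filter through UPF1 knockdown alone, and their calls are not weighed against these shares. HNRNPH1-215, a form without exon 5, was listed at 0 in all 3 DHX34 knockdown libraries and in 1 SCR library, and was at 18.8, 17.2 and 28.2 TPM in UPF1 knockdown. HNRNPH1-217, another NMD isoform without exon 5 and of similar length (620 against 610 bases), had the mirror pattern, at 7.50, 4.88 and 12.1 TPM in DHX34 knockdown and listed at 0 in all 3 UPF1 knockdown libraries (edgeR adjusted p = 0.00635).

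To lessen the effect of this division among near-identical isoforms, transcripts were regrouped by exon. For every protein-coding gene, an event was an exon that an NMD or noncoding isoform left out of, or added to, the MANE Select isoform, and all transcripts with either form were summed. This grouping was chosen after the isoform values had been seen. The log2 ratio of the 2 forms was tested with limma as above, and 14 events of the hnRNP genes had at least 0.5 TPM of the other form in 1 group or more.

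Of these, 2 were called in UPF1 knockdown against SCR, beside 4.73% of the 6991 events tested that were called higher. The share of HNRNPH3 without exon 3 was 11.1, 12.3 and 10.9% in SCR, 11.9, 10.9 and 12.9% in DHX34 knockdown and 26.0, 26.6 and 23.8% in UPF1 knockdown. UPF1 knockdown lay apart and the other groups overlapped, and the log2 ratio rose by 1.40 ± 0.17 (limma adjusted p = 0.0221). The regrouping did not remove the division of reads here, since the form without exon 3 is made up of HNRNPH3-207 and HNRNPH3-203 while HNRNPH3-209 holds the exon. With HNRNPH3-209 left out the share was 12.2 to 13.7% in SCR and 24.1 to 27.1% in UPF1 knockdown. With it counted on the side of the form without the exon, the share was 19.9 to 22.5% and 25.2 to 28.6%, still without overlap but a smaller difference. The HNRNPDL form with the added exon made up 3.55, 4.12 and 3.45% in SCR, 4.70, 4.52 and 4.79% in DHX34 knockdown and 9.66, 9.91 and 9.90% in UPF1 knockdown. All 3 groups were apart, and the rise in UPF1 knockdown was 1.50 ± 0.22 (limma adjusted p = 0.0254).

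HNRNPH1, whose exon 5 resembles exon 3 of HNRNPH3, had 8.60, 10.5 and 11.8% without that exon in SCR, 8.32, 7.64 and 10.9% in DHX34 knockdown and 17.4, 17.1 and 20.9% in UPF1 knockdown. The UPF1 libraries were again above all 6 others, but the ratio, at 0.98 ± 0.22 on the log2 scale, did not pass the test against SCR (limma adjusted p = 0.0575). Of the 38.5 TPM of this form in UPF1 knockdown on average, 21.4 TPM were HNRNPH1-215, one of the short models. The poison exon of HNRNPL was in 0.477, 0.708 and 0.712% in SCR, 0.843, 0.567 and 0.897% in DHX34 knockdown and 1.68, 2.32 and 2.06% in UPF1 knockdown (1.67 ± 0.35; limma adjusted p = 0.0525). HNRNPM without exon 3 was at 0.475, 0.718 and 0.727% in SCR, 0.295, 0.429 and 0.418% in DHX34 knockdown and 1.78, 1.83 and 2.40% in UPF1 knockdown (1.62 ± 0.36; limma adjusted p = 0.0562). In both genes UPF1 knockdown did not overlap with SCR, and DHX34 knockdown overlapped with SCR in HNRNPL and lay below it in HNRNPM.

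HNRNPK without exon 6, also frame-shifted, was at 7.10, 6.93 and 7.45% in SCR, 8.48, 7.69 and 8.83% in DHX34 knockdown and 8.06, 8.91 and 7.79% in UPF1 knockdown. Both knockdowns were above SCR on the log2 scale, DHX34 knockdown by 0.23 and UPF1 knockdown by 0.22, and overlapped with each other (limma adjusted p = 0.817 and 0.562 against SCR). A second exon of HNRNPH1, 134 bases long and added after exon 2 with an early stop, went from 0.364 ± 0.274% to 1.19 ± 0.135% (limma adjusted p = 0.127). HNRNPD without exons 2 and 3, a frame shift that closed the frame after 86 codons in place of 355, was at 4.09 ± 0.0811% in SCR and 4.55 ± 0.747% in UPF1 knockdown (limma adjusted p = 0.772). The 107-base exon of HNRNPD, which lies downstream of the stop as in HNRNPDL, was at 0.190 ± 0.062% and 0.319 ± 0.021% (limma adjusted p = 0.287).

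Events that keep the reading frame, or alter only its end, were also measured. HNRNPA1 without its 156-base exon 8 was at 77.4% in both SCR and UPF1 knockdown and 77.1% in DHX34 knockdown. HNRNPA2B1 with its 36-base exon was at 98.5% in SCR and 98.3% in UPF1 knockdown, and HNRNPD without the 147-base exon 7 was at 64.6% in both. In HNRNPH1 the stop codon ends the 50-base exon 13, and without that exon the frame ran on to a stop in the last exon, with 472 codons in place of 449. This form was at 8.09% in SCR and 7.55% in UPF1 knockdown. The frame-keeping 45-base exon 11 of HNRNPM was left out in 9.67, 10.8 and 9.50% in SCR, 12.6, 16.3 and 16.5% in DHX34 knockdown and 14.6, 14.2 and 16.3% in UPF1 knockdown, both knockdowns above SCR, with changes of 0.67 ± 0.22 and 0.67 ± 0.18 on the log2 scale that did not pass the test (limma adjusted p = 0.446 and 0.0893).

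**Figure D4:**
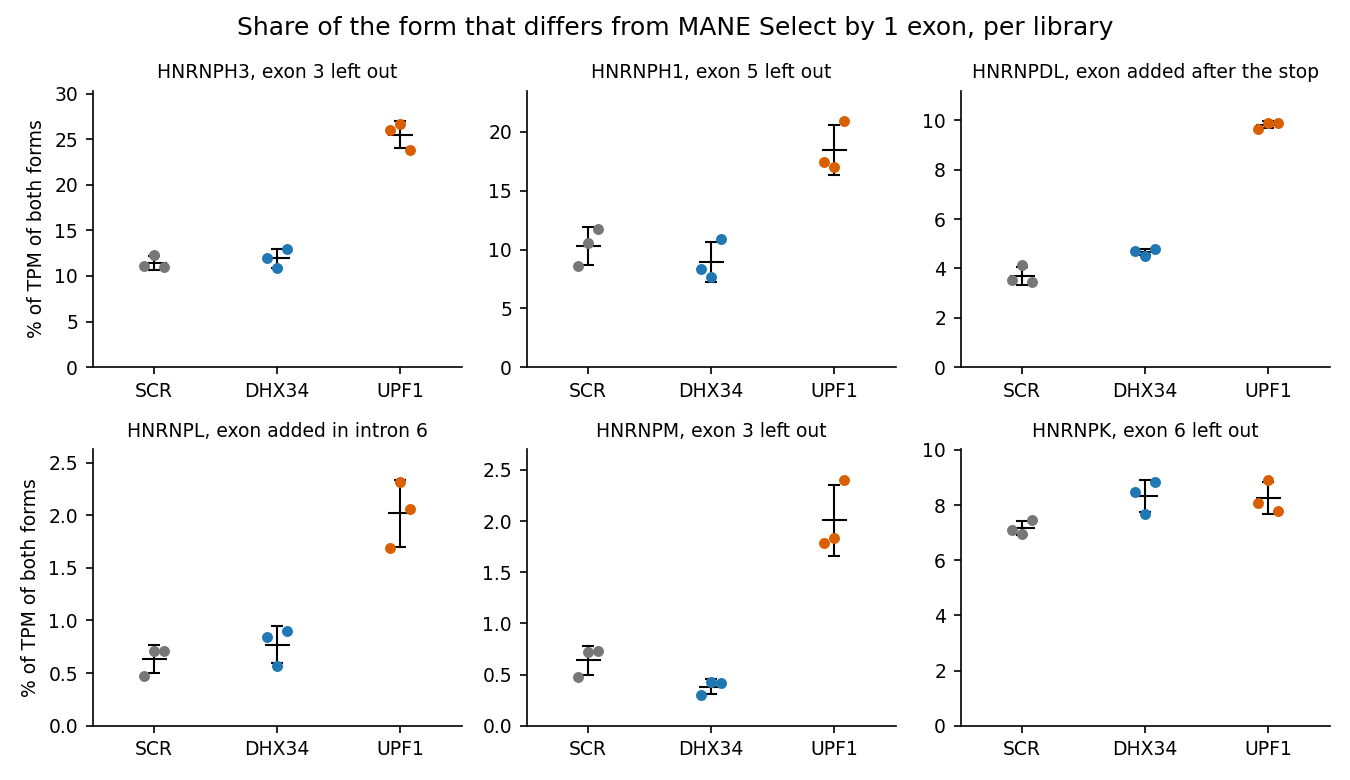
Share of the form with the exon left out or added, as a percentage of the TPM of both forms, in each library for 6 exon events of 6 hnRNP genes; points are libraries, black bars the mean ± SD, and each panel has its own axis from 0. UPF1 knockdown lies above the other groups in 5 panels, led by HNRNPH3 at 23.8 to 26.6%, and in HNRNPK the 2 knockdowns overlap. The 6 panels were picked from the 14 events. Among the events not drawn, UPF1 knockdown lies above both other groups only for the 134-base exon of HNRNPH1.

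In DHX34 knockdown against SCR limma called 0 events of these genes, beside 0.136% of the 6601 events tested that were called higher, and 1 of the 14 had an unadjusted p under 0.05. Against DHX34 knockdown, UPF1 knockdown was called higher for 4 events, beside 3.85% of all events: HNRNPH1 (1.21 ± 0.23), HNRNPH3 (1.34 ± 0.17), HNRNPDL (1.15 ± 0.21) and HNRNPM (2.32 ± 0.36), with limma adjusted p-values of 0.0449, 0.0226, 0.0397 and 0.0268. Leaving out 1 library lost most of these calls. HNRNPH3 against SCR was called without SCR replicate 1 or 2 (limma adjusted p from 0.0483 to 0.0982 over the 6 fits) and against DHX34 knockdown without DHX34 knockdown replicate 3 (from 0.0432 to 0.0997), and the other events in none.

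The wider family was described by 24 other hnRNP and related genes and by 14 SR genes, which encode the serine and arginine rich splicing factors that often oppose hnRNPs. In UPF1 knockdown against SCR, 14 of the 24 related genes fell and 1 rose at the gene level. Over all genes tested 12.9% were called lower, and the share called higher was not counted. The median log2 fold change of the 24 was -0.14, beside -0.17 for the 10 hnRNP genes and 0.02 over all genes tested. PCBP1, a poly(C)-binding protein, went from 631, 644 and 668 CPM to 517, 536 and 519 CPM, a fall by 0.31 ± 0.03 on the log2 scale, and PTBP2, the neural relative of PTBP1, rose by 0.28 ± 0.05 (edgeR adjusted p = 3.60e-06 and 0.00151). Among SR genes 5 of 13 fell and 1 rose, TRA2B at 0.25 ± 0.03 (edgeR adjusted p = 1.58e-05).

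The NMD to coding ratio rose in 4 of the 11 related genes tested and in 9 of the 13 SR genes tested, beside 3 of 8 hnRNP genes. Of the 3713 ratios tested over all genes, 15.1% rose. The median log2 change was 0.41 in the related genes and 1.30 in the SR genes, beside 0.47 over all genes tested. PTBP1, which makes an NMD isoform by leaving out an exon, rose by 2.18 ± 0.32, RBMX by 1.38 ± 0.26, TRA2A by 3.02 ± 0.44 and SRSF10 by 2.19 ± 0.24 on the log2 scale (limma adjusted p = 0.0124, 0.0235, 0.0123 and 0.00937). In DHX34 knockdown against SCR limma called 0 of the 11 and 0 of the 13 ratios, with 1 in each list at an unadjusted p under 0.05. Over all genes tested 0.14% of ratios were called higher. At the gene level 4 of the 24 related genes and 3 of the 13 SR genes fell and none rose. Of all genes tested, 4.86% were called lower. No test compared the lists with each other.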

How the data were processed

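The authors quantified each library with Salmon against Ensembl cDNA on GRCh38 and deposited, per transcript, expected counts (estimated counts that need not be whole) and TPM. Their sleuth and SUPPA2 tables, which hold their own fold changes and p-values, were not used. Here transcripts were matched by identifier to GENCODE 44 (97.9% of 203027 matched, 85.8% of these with the same length), which gave gene, biotype and exons. Expected counts were summed per gene or class, rounded, filtered (filterByExpr, minimum count 10) and tested over all features with edgeR 4.0.16 (TMM, quasi-likelihood, Benjamini-Hochberg) under R 4.3.3. Log2 ratios of TPM plus 0.1 were tested with limma 3.58.1 (trend), given means of at least 1 TPM coding and 0.1 TPM in the other class. Each comparison used its 6 libraries. DESeq2 1.42.0 and the other alternatives are in the closing section. The fits to gene, class and isoform counts were tested on simulated counts. The ratios, the exon events and the division of reads by salmon were not simulated.

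The members and lists were chosen with earlier results of these data known, and the exon events and the centred TPM values were added after the data had been seen. All 10 genes are described. The isoforms named were drawn from the highest of each class and those called, with a mean of at least 1 TPM over all 9 libraries. Not every highest isoform is named, and HNRNPA1-210 and HNRNPH1-217 were named outside this rule. From the other lists the examples are the most changed among those called. The study calls its replicates biological, of which not all were sequenced, and the labels do not say how the cultures were kept apart, so p-values measure the spread between these libraries.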

Additional observations from a re-analysis of the deposited data

How the results depend on the processing

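Counts of hnRNP genes called are given for UPF1 knockdown against SCR (UPF1), DHX34 knockdown against SCR (DHX34) and UPF1 against DHX34 knockdown (direct). Shares called over all features were not counted under the alternatives. None of the 8 gene sums called lower for UPF1 was called with limma on log2(TPM + 0.5), whose 1 call was HNRNPH3, higher, and where HNRNPA2B1 (0.0454), HNRNPD (0.0087), HNRNPDL (0.0113), HNRNPK (0.0113), HNRNPL (0.0105), HNRNPM (0.0880) and the isoform HNRNPD-203 (0.0011) turned positive. The 1 gene sum for DHX34 was 6 with DESeq2 or an adjusted p of 0.05, 3 with no filter on low counts, 4 with all 9 libraries in 1 fit, 0 on the TPM scale and 2 with each library centred on its median level, which put the median gene at -0.11. The 1 gene sum for the direct comparison was 3 with DESeq2 or an adjusted p of 0.05, and 0 with length-scaled counts or any of the 3 TPM scales. Coding class sums for DHX34 went from 1 to 6 with DESeq2 and 5 at 0.05, and for the direct comparison from 0 to 4, 3 and, with all 9 libraries, 1. Noncoding class sums went from 0 to 2 with DESeq2, 3 at 0.05 and 1 with no filter for UPF1, and from 0 to 1 under each of these for the direct comparison. NMD to coding ratios, 3 for UPF1 and 3 for the direct comparison, were 0 in both at an adjusted p of 0.005, and 5 for UPF1 with a pseudocount of 1 TPM or all 9 libraries. Exon events, 2 and 4, were 0 at 0.005. Those for UPF1 were 7 with a pseudocount of 1 TPM and 5 with all 9 libraries, and those for the direct comparison 2 with no filter. Isoforms called, 17, 0 and 7, were 32, 13 and 22 with DESeq2 and 28, 7 and 15 at 0.05. With limma on TPM the 17 (5 higher, 12 lower) were 8 (7 higher, 1 lower), and with all 9 libraries the 0 were 3. Deviations of same-numbered replicates from their group means were correlated at r between -0.0997 and 0.0810 over all genes tested. The labels do not say whether the numbers pair the samples, and these correlations cannot exclude a pairing. With a replicate block the NMD class sums were 0 for DHX34 and 2 for the direct comparison, coding class sums 0 for DHX34, and NMD to coding ratios, exon events and isoforms 0 for UPF1 and direct. Leaving out 1 library in turn gave 7 to 8, 1 to 4 and 0 to 4 gene sums, 7 to 8, 0 to 1 and 0 to 3 coding class sums, 3 to 5, 0 to 1 and 2 to 4 NMD class sums, 0 to 3 and 0 to 2 ratios, 0 to 1 events for UPF1 and direct, and 0 to 8 and 0 to 3 isoforms. In each case the cause was not tested.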
